A study of Macaca mulatta with 30 samples.

Results

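MBP, CNP, OLIG2, CX3CR1 and P2RY12 were examined as markers of oligodendrocytes and microglia, and their levels outside cerebral cortex were recorded. They were chosen by gene symbol. Every probe set of the rhesus macaque GeneChip to which the platform annotation gives 1 of these symbols and no other was taken, which gave 9 of the 52865 probe sets: 2 each for MBP, CNP, OLIG2 and P2RY12 and 1 for CX3CR1. RNA came from 4 rhesus macaque tissues (cerebral cortex, pancreas, testis and thymus) and from immortalized fibroblasts, a cell line. The study's methods name Yerkes for the RNA of cerebral cortex, Nebraska for that of fibroblasts and Oregon for the others. An effect of cerebral cortex therefore cannot be told apart from one of where its RNA came from. Each RNA was divided into aliquots, and 2 aliquots were labeled and hybridized at each of 3 centers (Oregon, Nebraska and Yerkes), which gave 6 arrays a tissue and 10 a center. The study asked whether the centers gave the same answer from the same RNA. It also compared the chip with quantitative PCR for chosen genes, and with a human GeneChip for the same sources. The labels give no age, sex or treatment for the animals, and nothing further about the cell line. Since each tissue was represented by 1 RNA, a p-value here speaks of repeated labeling and hybridization and not of differences between animals.

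Oligodendrocytes wrap axons of the central nervous system in myelin. MBP, the myelin basic protein, holds the layers of the myelin membrane together, CNP is an enzyme of the cytoplasm between them, and OLIG2 is a transcription factor that sets the oligodendrocyte lineage. Microglia are the resident macrophages of the brain. CX3CR1 is their receptor for the chemokine fractalkine, which neurons make, and is also carried by blood monocytes and by some lymphocytes, and P2RY12 is a receptor for adenine nucleotides, known in microglia and in platelets. In tissue RNA, fewer cells of a type cannot be told apart from less RNA per cell.

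Values are log2 signals. The authors normalized the arrays of each center separately, and Oregon, Nebraska and Yerkes arrays had mean signals of 6.33, 6.36 and 6.91 (n = 10 arrays each), so Yerkes values lie on a higher scale and the SD over the 6 arrays of a tissue holds this shift. Center was a term of the limma model. The values carry no detection calls. The array median, between 5.95 and 6.81 on the 30 arrays, is given as a mark of dim signal. At every center the median was highest on the pancreas arrays, and the median over all probe sets of cerebral cortex minus pancreas was -0.19, so small differences between pancreas and other tissues are to be read against a shift of this size. By its array quality measures the study rated the pancreas arrays below those of the other sources, and the part of this in the pancreas values was not tested.

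A probe set was called higher in cerebral cortex when all 4 of its differences from other tissues were positive with an adjusted p under 0.05 (limma, Benjamini-Hochberg over all 52865 probe sets). This held for 7 of the 9 marker probe sets, and for 10.8% of all probe sets. Taken pair by pair, cerebral cortex was higher than fibroblasts for 9 of the 9 (30.5% of all probe sets), than pancreas for 9 (27.4%), than thymus for 9 (32.5%) and than testis for 7 (37%). Where the smallest of the 4 log2 differences also had to reach 2, it held for 4, and for 1.94% of all. Both cerebral cortex arrays lay above all 8 other arrays at every center for both MBP, 1 of the OLIG2, the CX3CR1, both P2RY12 and 1 of the CNP probe sets, which held for 9.31% of all probe sets. The marker genes therefore fell into a group far above the other tissues (MBP, 1 probe set each of OLIG2 and P2RY12, and more weakly the other P2RY12 probe set), a group near the dim level (CX3CR1 and the other OLIG2 probe set) and a gene strong in all 5 sources (CNP).

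**Figure D1:**
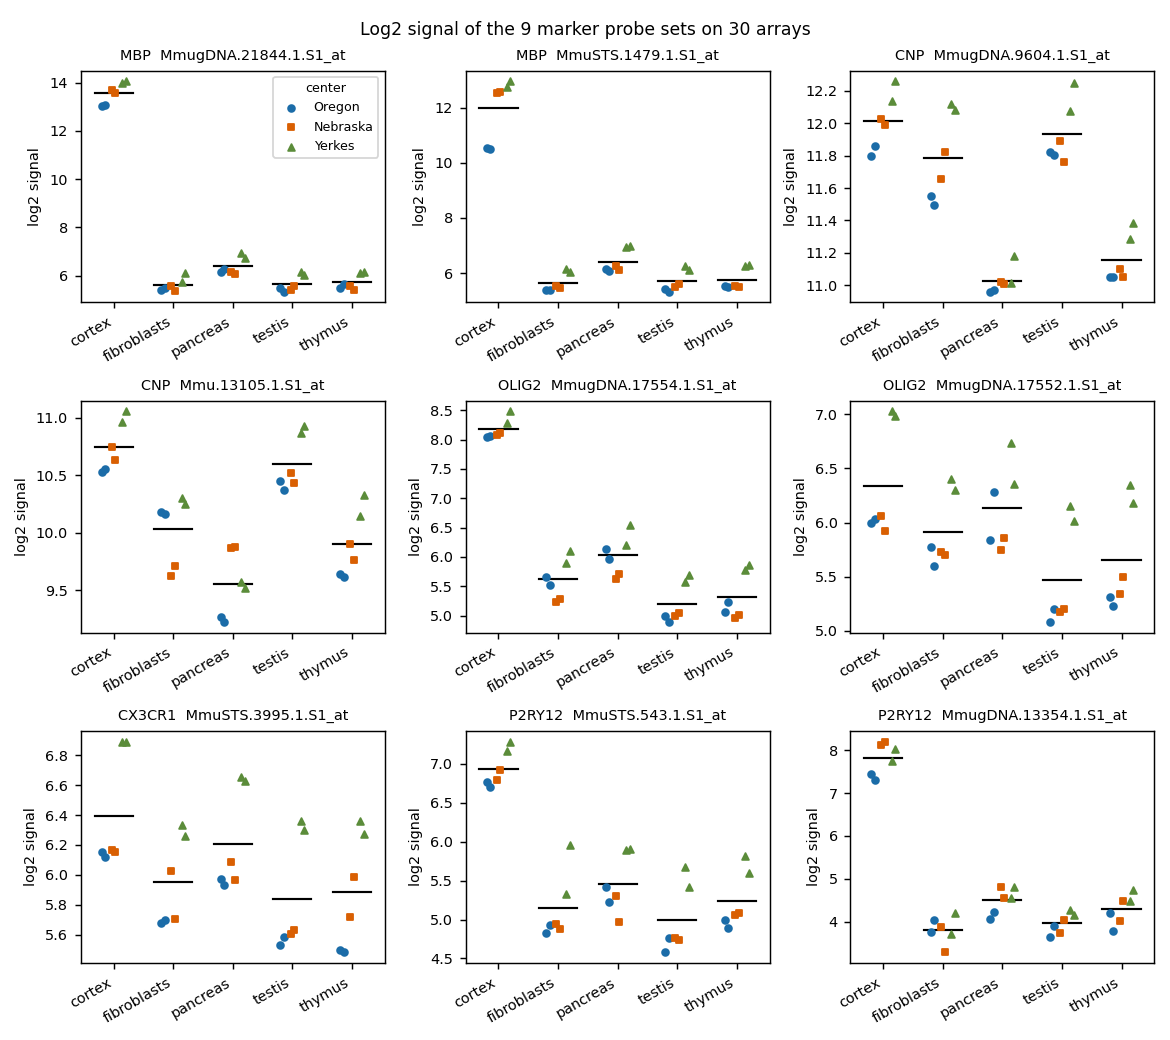
Log2 signal (y axis, own scale in each panel) of the 9 marker probe sets by tissue (x axis), with 1 point per array, center shown by colour and shape, and the mean of 6 arrays as a line. MBP lies above 10 in cerebral cortex and below 7 elsewhere, whereas CNP lies above 9 everywhere.

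MBP showed the largest difference of the marker genes. On its MmugDNA probe set (MmugDNA.21844.1.S1_at), cerebral cortex lay between 13.04 and 14.06 with a median of 13.62. Pancreas lay between 6.05 and 6.95 (median 6.21), thymus between 5.42 and 6.15 (median 5.62), testis between 5.32 and 6.16 (median 5.52) and fibroblasts between 5.36 and 6.12 (median 5.54). The lowest cerebral cortex array thus stood far above the highest array of any other tissue. The mean was 13.57 ± 0.44 in cerebral cortex and 6.38 ± 0.37 in pancreas, the next tissue (SD, n = 6 arrays each), a log2 difference of 7.19 (SE 0.09, limma adjusted p = 2.8e-34) or 146-fold. Over fibroblasts the difference was 7.95.

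The MmuSTS probe set of MBP (MmuSTS.1479.1.S1_at) gave a smaller difference and a wider spread. Cerebral cortex lay between 10.51 and 12.96 with a median of 12.53, and its mean was 11.97 ± 1.13, against 6.42 ± 0.42 in pancreas (SD, n = 6 arrays each). The log2 difference was 5.55 (SE 0.20, limma adjusted p = 6.32e-22), or 46.9-fold. The spread in cerebral cortex lay between the centers rather than the aliquots, which differed by at most 0.22 within a center. The 2 Oregon arrays averaged 10.52, those of Nebraska 12.53 and those of Yerkes 12.85.

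Outside cerebral cortex, MBP was dim. All 18 arrays of fibroblasts, testis and thymus lay below their array median on both probe sets, and these 3 tissues did not pass the test against each other (6 comparisons, limma adjusted p between 0.252 and 0.854). In fibroblasts minus testis the 95% interval of the difference ran from -0.22 to 0.13 on the MmugDNA probe set. Pancreas was higher than each of them on both probe sets, by 0.71 over their mean (limma adjusted p of at most 0.00351 for each pair; on the MmuSTS probe set the difference from thymus, 0.65, was 0.49 with adjusted p = 0.0601 after quantile normalization of all arrays as a single set), and 2 and 3 of its 6 arrays lay above the array median. Of all probe sets, 31.6% were higher in pancreas than in each of these 3 tissues. Schwann cells, the myelin-forming cells of peripheral nerve, also carry MBP, and of 4 Schwann cell genes matched by symbol PRX and CDH19 were called highest in pancreas (25.2% of all probe sets were), by 0.44 each over cerebral cortex, with CDH19 at 5.36 and PRX at 7.06. The other members of that list were S100B, at 10.83 in cerebral cortex and 7.11 in pancreas, and PMP22, at 9.33 in cerebral cortex, 8.19 in pancreas and 10.49 in fibroblasts. Their part in the pancreas signal of MBP was not tested.

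CNP was strong in all 5 sources, and on both probe sets cerebral cortex passed against fibroblasts, thymus and pancreas and not against testis. On its MmugDNA probe set (MmugDNA.9604.1.S1_at) cerebral cortex lay between 11.80 and 12.26 (median 12.01), testis between 11.76 and 12.25 (median 11.86) and fibroblasts between 11.49 and 12.12 (median 11.74). The ranges of cerebral cortex and testis overlap almost fully, whereas 3 of the 6 fibroblast arrays lay below the lowest cerebral cortex array. Thymus lay between 11.05 and 11.38 (median 11.08) and pancreas between 10.96 and 11.18 (median 11.01), below all arrays of the other 3 sources. Cerebral cortex exceeded testis by 0.08 (SE 0.06, limma adjusted p = 0.276, 95% interval -0.05 to 0.21), fibroblasts by 0.22 (adjusted p = 0.00266), thymus by 0.86 and pancreas by 0.99. With the 30 arrays quantile normalized as a single set, the difference from testis was 0.21 and passed (limma adjusted p = 0.00149).

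The other CNP probe set, whose identifier begins with Mmu, put cerebral cortex and testis on top as well. Cerebral cortex averaged 10.75 ± 0.22 and testis 10.60 ± 0.24 (SD, n = 6 arrays each), a difference of 0.15 (SE 0.11, limma adjusted p = 0.215, 95% interval -0.07 to 0.38). The same difference passed with tissue by center cell means (limma adjusted p = 0.00487), and both cerebral cortex arrays lay above all others at each center. Fibroblasts averaged 10.04 ± 0.29, thymus 9.90 ± 0.29 and pancreas 9.55 ± 0.28. Cerebral cortex exceeded these 3 by 0.71, 0.85 and 1.19, each called. In the order of the tissues, fibroblasts and thymus were neighbours that did not pass (0.14, adjusted p = 0.298, 95% interval -0.09 to 0.36), though they did with tissue by center cell means (adjusted p = 0.0121) and without the Nebraska arrays (0.29, adjusted p = 0.00642). All 30 arrays lay above the array median for both CNP probe sets. Under that quantile normalization pancreas lay above thymus by 0.49 on the MmugDNA and 0.35 on the Mmu probe set, so the place of pancreas at the low end holds only for the deposited scale.

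OLIG2 was high in cerebral cortex on MmugDNA.17554.1.S1_at. Its 6 cerebral cortex arrays lay between 8.05 and 8.48 with a median of 8.09. Pancreas lay between 5.63 and 6.54 (median 6.05), fibroblasts between 5.23 and 6.11 (median 5.59), thymus between 4.96 and 5.85 (median 5.14) and testis between 4.89 and 5.70 (median 5.02), and all 24 of these arrays were below their array median. Cerebral cortex exceeded pancreas by 2.15 (SE 0.08, limma adjusted p = 9.4e-21), or 4.43-fold, fibroblasts by 2.56, thymus by 2.86 and testis by 2.98. Within Oregon, Nebraska and Yerkes the difference from pancreas was 2.01, 2.42 and 2.02 (n = 2 arrays each). Below cerebral cortex, pancreas exceeded fibroblasts by 0.41 and fibroblasts exceeded thymus by 0.30 (not without the Oregon arrays, limma adjusted p = 0.067, and neither call held without a center term, adjusted p = 0.077 and 0.27), whereas thymus and testis did not pass (testis minus thymus -0.12, adjusted p = 0.238, 95% interval -0.29 to 0.05).

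The other OLIG2 probe set, MmugDNA.17552.1.S1_at, hardly separated cerebral cortex from pancreas. Cerebral cortex lay between 5.92 and 7.03 (median 6.05) and pancreas between 5.75 and 6.74 (median 6.07), and the ranges overlap. Their means were 6.34 ± 0.52 and 6.14 ± 0.39 (SD, n = 6 arrays each), a difference of 0.20 (SE 0.09, limma adjusted p = 0.0367). The call did not hold without the Nebraska arrays (adjusted p = 0.118), without the Yerkes arrays (0.070, adjusted p = 0.523) or without a center term (adjusted p = 0.512), and at Oregon cerebral cortex averaged 6.02 and pancreas 6.06. Only 2 of the 6 cerebral cortex arrays, both from Yerkes, lay above their array median. Testis was lowest here too, at 5.47 ± 0.48. In the fit with a center term, cerebral cortex exceeded fibroblasts by 0.42, thymus by 0.69 and testis by 0.87, each called.

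CX3CR1 was close to the array median in every tissue. Its 1 probe set (MmuSTS.3995.1.S1_at) lay between 6.12 and 6.89 in cerebral cortex (median 6.16), between 5.93 and 6.66 in pancreas (median 6.03), between 5.68 and 6.33 in fibroblasts (median 5.87), between 5.48 and 6.36 in thymus (median 5.85) and between 5.53 and 6.36 in testis (median 5.62). Over all centers these ranges overlap. Within each center both cerebral cortex arrays were above the other 8. Cerebral cortex was above the array median on 6 of 6 arrays, by 0.11 on average, and the other tissues on none of 24.

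Cerebral cortex exceeded pancreas in CX3CR1 by 0.19 (SE 0.07, limma adjusted p = 0.01), a 1.14-fold difference, fibroblasts by 0.44, thymus by 0.51 and testis by 0.56. Within Oregon, Nebraska and Yerkes the difference from pancreas was 0.18, 0.13 and 0.25 (n = 2 arrays each). The call was lost without the Oregon arrays (adjusted p = 0.0581), without the Yerkes arrays (adjusted p = 0.104) and without a center term (adjusted p = 0.463). Pancreas exceeded the mean of fibroblasts, testis and thymus by 0.31. Fibroblasts, thymus and testis did not pass against each other (limma adjusted p = 0.122, 0.422 and 0.526). Its ligand gene CX3CL1 was at 8.30 in cerebral cortex and at 7.67 in pancreas, the next tissue, a difference of 0.63 (SE 0.08) that was called.

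P2RY12 gave a clearer signal than CX3CR1, the other microglia marker. On its MmugDNA probe set (MmugDNA.13354.1.S1_at) cerebral cortex lay between 7.30 and 8.20 with a median of 7.90. The other tissues lay far below their array medians, pancreas between 4.06 and 4.82 (median 4.54), thymus between 3.79 and 4.74 (median 4.34), testis between 3.65 and 4.28 (median 3.96) and fibroblasts between 3.29 and 4.19 (median 3.82). No array of another tissue came near the lowest cerebral cortex array. Cerebral cortex exceeded pancreas by 3.31 (SE 0.14, limma adjusted p = 5.18e-20), or 9.94-fold, thymus by 3.52 and testis by 3.85. Fibroblasts had the lowest mean, 3.81.

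The MmuSTS probe set of P2RY12 (MmuSTS.543.1.S1_at) gave the same order at its upper end with smaller differences. Cerebral cortex lay between 6.71 and 7.29 (median 6.86), and pancreas between 4.97 and 5.91 (median 5.36). The difference was 1.49 (SE 0.09, limma adjusted p = 7.46e-16), or 2.80-fold, and 1.41, 1.72 and 1.32 within Oregon, Nebraska and Yerkes (n = 2 arrays each). All 24 arrays of the other tissues were below their array median on both probe sets. Thymus lay above testis on both, by 0.25 (adjusted p = 0.0181) and 0.33 (adjusted p = 0.044), and these calls were lost without the Oregon or the Nebraska arrays (adjusted p between 0.0524 and 0.125) and without a center term. The call on the MmugDNA probe set was also lost without the Yerkes arrays (adjusted p = 0.194), without the pancreas arrays (adjusted p = 0.0554) and with all arrays quantile normalized as a single set (adjusted p = 0.125). Platelets, which carry P2RY12, have genes such as PPBP, a platelet chemokine, and PF4. All 6 platelet genes measured were higher in pancreas than in the 4 other tissues, as were 25.2% of all probe sets, with PPBP at 5.02 in pancreas and 4.02 in cerebral cortex and PF4 at 7.21 and 6.46. The mean log2 level of the list was between 5.85 and 6.69 on the cerebral cortex arrays, and between 5.72 and 7.21 on the other 24. By tissue the list averaged 6.80 in pancreas, 6.14 in cerebral cortex and in thymus, 6.13 in fibroblasts and 5.98 in testis. The part of platelets in the P2RY12 signal was not tested.

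**Figure D2:**
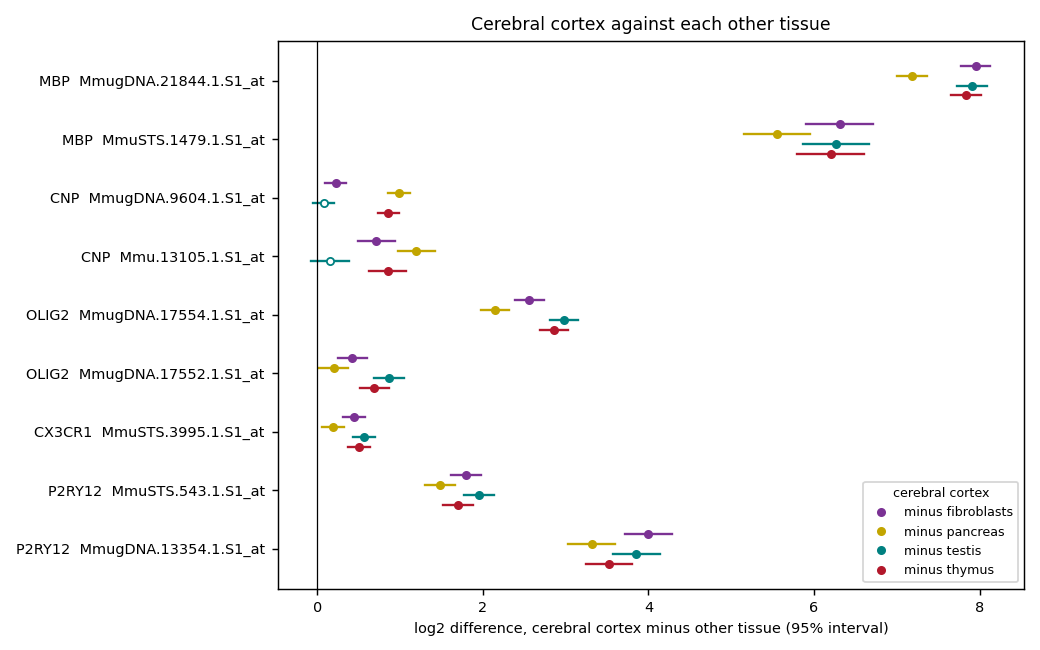
Log2 difference between cerebral cortex and each other tissue (x axis) for the 9 marker probe sets (y axis), with its 95% interval from limma (6 arrays a tissue) and filled points for an adjusted p under 0.05. Only the CNP differences from testis, 0.08 and 0.15, are open, and pancreas gives the smallest difference for every probe set but those of CNP.

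Pancreas was the tissue next to cerebral cortex for 7 of the 9 probe sets, all but those of CNP. Among all 8192 probe sets whose highest mean was in cerebral cortex, pancreas came next for 38.6%. Over the 6 pairs of tissues without cerebral cortex, 37 of the 54 comparisons passed, and 18 of these did not pass without a center term. Pancreas differed from fibroblasts and from testis on 9 of the 9 probe sets (77.7% and 83.1% of all probe sets) and from thymus on 7 (82.3%). Fibroblasts differed from testis on 4 (65.8%) and from thymus on 4 (58.3%), and testis differed from thymus on 4 (54.8%). With the arrays quantile normalized as a single set, pancreas no longer passed against fibroblasts for the MmugDNA probe set of CNP, for MmugDNA.17552.1.S1_at of OLIG2, for CX3CR1 or for the MmuSTS probe set of P2RY12 (limma adjusted p between 0.208 and 0.991). For CNP fibroblasts minus pancreas was then 0.021, against 0.76 as deposited. Pancreas minus thymus was also lost for the MmuSTS probe set of P2RY12 (adjusted p = 0.724).

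The size of the MBP difference depended on the center. Taken against the mean of the other 4 tissues, cerebral cortex was higher on the MmuSTS probe set by 4.93 at Oregon, 6.84 at Nebraska and 6.47 at Yerkes (SE 0.07 each, n = 2 arrays of cerebral cortex at each center). The Nebraska minus Oregon change was 1.91 (SE 0.10), and only 2 of the 52865 probe sets changed by more. It came from cerebral cortex, where Nebraska minus Oregon was 2.01, and not from the other tissues, where it was between 0.01 and 0.17. On the MmugDNA probe set the differences were 7.40, 7.98 and 7.77, and the change of 0.58 (SE 0.13, limma adjusted p = 0.0162) was called. Of all probe sets, 2.99% were called for Nebraska minus Oregon, 2.06% for Yerkes minus Oregon and 3.58% for Yerkes minus Nebraska, and of the 9 markers 2, 1 and 1 were. In spite of these changes, MBP in cerebral cortex lay far above every other tissue at each center. Its calls came from the fit over all centers and were not made within a center.

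Of the 9 probe sets, 3 showed a tissue by center interaction (limma F test), and 28.3% of all probe sets did. They were the MmuSTS probe set of MBP, the Mmu probe set of CNP and MmugDNA.17554.1.S1_at of OLIG2. For CNP, Nebraska minus Oregon was -0.51 in fibroblasts and 0.63 in pancreas, whereas cerebral cortex and testis changed by 0.15 and 0.06. Fibroblasts exceeded pancreas at Oregon and Yerkes and not at Nebraska.

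**Figure D3:**
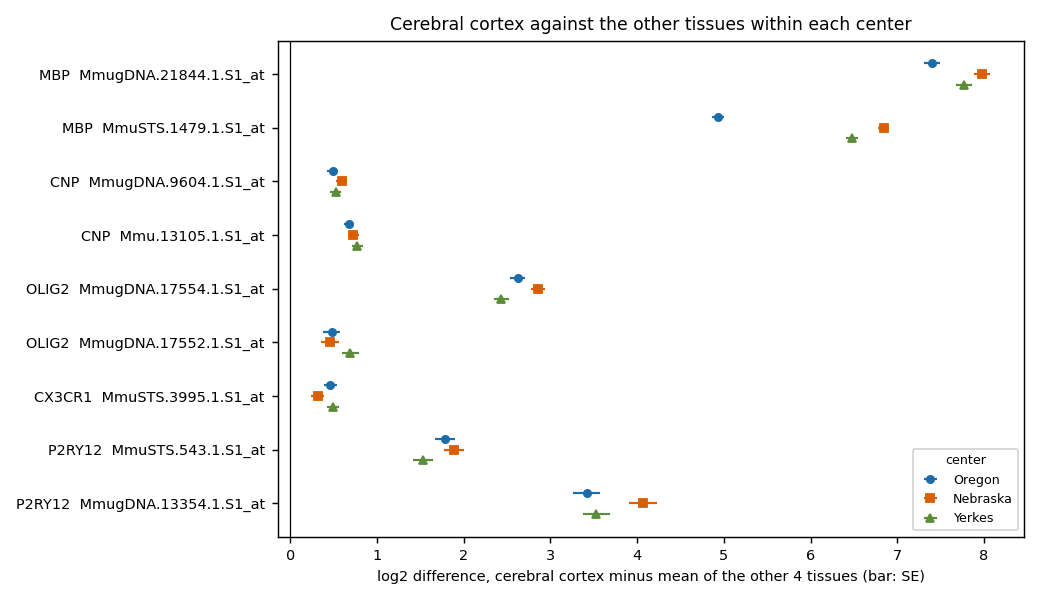
Log2 difference between cerebral cortex and the mean of the other 4 tissues (x axis) within each center for the 9 marker probe sets (y axis), with the SE from limma as a bar (2 cerebral cortex arrays and 8 others at each center). The MmuSTS probe set of MBP stands at 4.93 at Oregon and above 6 at Nebraska and Yerkes, whereas for CNP and CX3CR1 the centers lie close together.

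Other genes of the same cells were uneven. Of 22 further oligodendrocyte and myelin genes, 10 matched a probe set by a single symbol and are called measured. Of the 10, 6 were called higher in cerebral cortex, as were 10.8% of all probe sets. Over the 10, the median difference from the highest other tissue was 0.43, where the median over all probe sets was -0.46. PLLP, a protein of myelin membranes, exceeded its next tissue by 2.08 (SE 0.08), the receptor gene GPR37 by 1.54 (SE 0.12) and UGT8, which makes the myelin lipid galactosylceramide, by 1.48 (SE 0.11). ASPA, the enzyme that breaks down N-acetylaspartate, exceeded testis by 0.96 (SE 0.07). The other 4 were lower there than in some other tissue, as were 73% of all probe sets. MYRF, the transcription factor of myelin genes, was at 7.62 in cerebral cortex and 8.39 in pancreas, SOX10 at 7.02 and 7.52, and ENPP2, the enzyme autotaxin, at 9.07 in cerebral cortex and 10.28 in fibroblasts. Of 4 genes of oligodendrocyte precursors, PTPRZ1 (3.66, SE 0.09) and BCAS1 (0.94, SE 0.10) were higher in cerebral cortex, GPR17 differed by -0.06, and the proteoglycan gene CSPG4 was at 7.12 in cerebral cortex and 7.69 in fibroblasts.

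Of 10 further microglia genes measured, 2 were called higher in cerebral cortex, as were 10.8% of all probe sets. The median difference over the 10 was -0.78. The 2 called were GPR34, a lipid receptor, by 2.26 (SE 0.16) and ITGAM, an integrin chain of myeloid cells, by 1.86 (SE 0.10). Without the pancreas arrays 4 were called, but a call then needs fewer comparisons and the 10.8% does not apply to it. The signaling adaptor TYROBP and 3 complement genes, C1QA and C1QB among them, which macrophages of many tissues express, were called highest in thymus, as were 12.5% of all probe sets, with C1QA at 7.44 in cerebral cortex and 9.19 in thymus and TYROBP at 7.24 and 8.75. TMEM119, used as a microglia marker, was at 6.65 in cerebral cortex and 9.71 in fibroblasts, where 10.1% of all probe sets were called highest. CSF1R and AIF1 differed by -0.06 and 0.06 from the highest other tissue (limma adjusted p = 0.43 and 0.47).

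Genes of other cells that carry CX3CR1 gave counts to be read against the background of all probe sets, 10.8% called higher in cerebral cortex and 73% lower there than in some other tissue. Of 8 further macrophage and monocyte genes, 1 was higher there and 7 were lower than in some tissue. The 1 was CD68 (9.61 in cerebral cortex and 7.26 in testis), whereas LYZ, the lysozyme, was at 5.22 in cerebral cortex and 10.33 in thymus and S100A8 at 5.78 and 9.59. Of 6 genes of natural killer and cytotoxic cells, all 6 were lower in cerebral cortex than in some other tissue by limma, though not in the same one. GZMB, a granzyme, was at 5.76 in cerebral cortex and 9.60 in thymus, GZMA at 8.45 in cerebral cortex and 11.27 in testis, GNLY at 6.53 in cerebral cortex and 7.12 in pancreas, and KLRD1 at 8.80 in cerebral cortex and 11.36 in fibroblasts. Whether the probe set named KLRD1, a receptor of natural killer cells, measures that gene was not tested. CX3CR1 in thymus was at 5.89 ± 0.38 (SD, n = 6 arrays), below the array median on all 6. The 5 T cell genes of the list did not match a probe set by a single symbol and were not analysed here.

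Neurons and astrocytes served as a check of the tissue label, with lists chosen when earlier results of these data were known. All 6 neuron genes were called higher in cerebral cortex, by a median of 5.51, as were 10.8% of all probe sets. So were 3 of 4 astrocyte genes, among them the glutamate transporter SLC1A2 at 12.91 in cerebral cortex and 8.87 in pancreas. The other, ALDH1L1, was at 7.52 in cerebral cortex and at 8.10 in both pancreas and thymus. Over the measured neuron genes the mean log2 level was between 11.21 and 11.94 on the cerebral cortex arrays, and between 5.40 and 6.75 on the other 24.

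**Figure D4:**
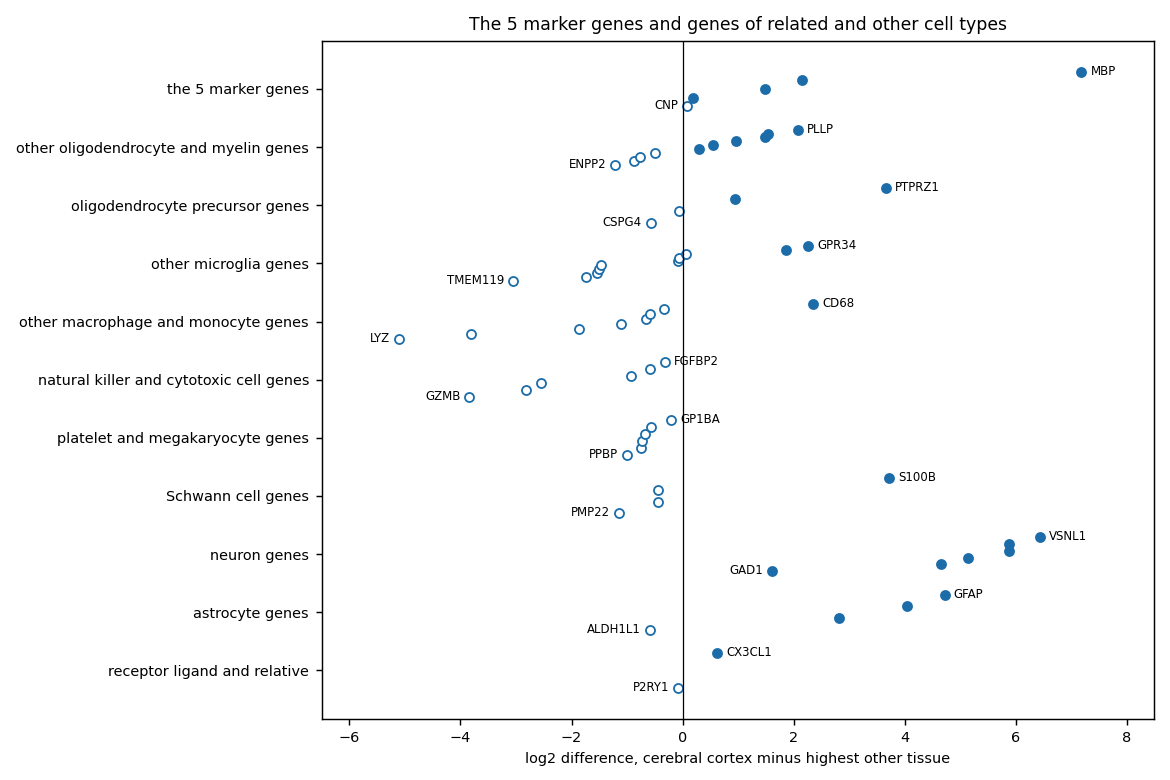
Log2 difference of cerebral cortex from whichever other tissue was highest (x axis) for the 5 marker genes and for each measured gene of 10 further lists (y axis), with 1 probe set per gene, filled where cerebral cortex was called higher than all 4 other tissues. MBP and the neuron genes other than GAD1 (1.62) lie far to the right, whereas most macrophage, cytotoxic cell and platelet genes lie to the left of 0.

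The genes most like each marker were sought by Pearson r over the 30 arrays, after subtraction of the mean of each center, among 14132 other genes with 1 probe set each. The coefficients are a description, since the 6 arrays of a tissue share 1 RNA. For the MmugDNA probe set of MBP they were CAMKV, XKRX, NRSN1, the astrocyte filament gene GFAP and the neuronal kinesin KIF5A (r of 0.996 to 0.998), and 326 genes exceeded 0.95. GFAP and KIF5A led for the MmuSTS probe set as well (0.991 each). NEUROD6, a transcription factor of neurons, was among the 5 most like both MmugDNA.17554.1.S1_at of OLIG2 (0.988) and the MmuSTS probe set of P2RY12 (0.984). The list for CX3CR1 was led by HAPLN2 (0.939), a matrix protein of the nodes of myelinated axons, and that for the MmugDNA probe set of CNP by MRAS, MBOAT2 and MGST3 (0.977, 0.973 and 0.970). For the MmugDNA probe set of P2RY12, ALDOC, a glycolytic enzyme of the brain, and SV2A, a protein of synaptic vesicles, were among the 5.

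The 2 probe sets of a gene followed each other to differing degrees. Over the 30 arrays the coefficient was 0.994 for MBP, 0.974 for P2RY12, 0.834 for CNP and 0.775 for OLIG2. Between genes, MBP and P2RY12 were alike (0.965 to 0.985) and so were MBP and MmugDNA.17554.1.S1_at of OLIG2 (0.970 and 0.974). Such coefficients were not particular to these genes, since 326 genes exceeded 0.95 with the MmugDNA probe set of MBP. CNP stood apart from every other marker, at 0.556 or less.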

How the data were processed

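RNA of 5 sources was hybridized with the rhesus GeneChip on 30 arrays. The deposited values are on a log2 scale: per the study's methods the authors corrected background with MAS 5.0, quantile normalized the arrays of each center separately and summarized all 30 arrays by RMA (versions are not given in the sources used here). These steps were not repeated. A mean over probes of 1 RNA shows technical spread only, and the number of arrays limits the precision. No arrays held identical values.

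Genes were named through the platform annotation, in which 24969 probe sets carry 1 symbol, 361 several and 27535 none. List genes were represented by the probe set with the highest mean signal. Some had more than 1, such as SOX10 (2), ENPP2 (3) and GZMA (4). The levels given for list genes are those of the chosen probe set alone. Of 99 list genes, 65 matched a probe set by a single symbol. Tissue and center were fitted with limma 3.58.1 in R 4.3.3 over all probe sets, tested on simulated data, and p-values were adjusted by Benjamini-Hochberg for each pair of tissues. Text names the 5 markers, up to 8 genes of a list with the largest or smallest difference, and the 5 genes most like each probe set. The markers and lists were chosen with earlier results of these data known. Alternatives were another normalization, no center term, a signal filter, a replicate block, cell means, array weights, mean probe sets, and leaving out a center or the pancreas. Sequences and genome positions of the probe sets were not analysed here.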

Additional observations from a re-analysis of the deposited data

Results flagged for a closer look

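On the MmuSTS probe set of MBP, tissue differences depended on the center (limma F test of the interaction, adjusted p = 2.98e-09). The difference between cerebral cortex and the mean of the other tissues changed by 1.91 for Nebraska minus Oregon, by 1.54 for Yerkes minus Oregon and by -0.37 for Yerkes minus Nebraska (limma adjusted p = 0.0357 for the last). On the MmugDNA probe set of MBP the Nebraska minus Oregon change was 0.58. These were 4 of 27 comparisons between centers examined. The interaction was also called for CNP on its Mmu probe set (limma adjusted p = 1.07e-05) and for OLIG2 on MmugDNA.17554.1.S1_at (limma adjusted p = 0.0444).

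For CNP on its MmugDNA probe set, aliquot 2 of pancreas at Yerkes, at 11.18, was marked as distant from the other 5 pancreas arrays. The next of these was at 11.02. It was the 1 array so marked in 45 groups of 6 arrays. The rule treats the 6 arrays as alike, whereas they are pairs from different centers and Yerkes values lie on a higher scale. The share of groups that chance would mark is therefore not known here.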

How the results depend on the processing

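The calls of both MBP probe sets, of OLIG2 on MmugDNA.17554.1.S1_at and of both P2RY12 probe sets held under every alternative that could be run, with differences from the highest other tissue of 7.01 to 7.83 and 5.16 to 6.20 for MBP, 2.01 to 2.56 for OLIG2, and 3.23 to 3.52 and 1.37 to 1.70 for P2RY12. Without a center term the calls of CX3CR1 (0.19) and of OLIG2 on MmugDNA.17552.1.S1_at (0.20) were lost. CX3CR1 also lost its call without the Oregon (0.19) and the Yerkes arrays (0.16), and that OLIG2 probe set without the Nebraska (0.21) and the Yerkes arrays (0.070). CNP gained a call after quantile normalization of all 30 arrays (0.21, MmugDNA probe set) and with tissue by center cell means (0.15, Mmu probe set). The cause was not tested. With the probe sets above the median mean signal alone, 2 marker probe sets were called, since 5 of the 9 were left out. The 2 were those of MBP. Their means over all arrays, 7.39 and 7.10, passed the filter through cerebral cortex, so this setting does not test their call. The genes called were 1 of the markers, 0 of the precursor genes and 1 of the microglia genes, of 2, 1 and 8 that stayed in. The share of all retained probe sets that was called is not given here. Without the pancreas arrays 4 microglia genes and 1 platelet gene were called. A call then needs fewer comparisons, and the share of all probe sets called in this setting is not given here, so these counts have no background. Between tissues other than cerebral cortex, quantile normalization of all 30 arrays turned round fibroblasts minus pancreas (CNP, Mmu probe set, -0.35) and pancreas minus thymus for CNP (0.49 and 0.35). Uncalled differences near 0 changed sign in fibroblasts minus thymus without the Oregon arrays (CNP -0.065, CX3CR1 -0.0028), in testis minus thymus without the Nebraska arrays (CX3CR1 0.042) and with array weights (MBP 0.029), and in fibroblasts minus testis without the Yerkes arrays (MBP 0.015). With the replicate block (the number of the aliquot within its center), all 7 calls held (CX3CR1 0.19, adjusted p = 0.0146), and no call between tissues changed. Same-numbered aliquots of different tissues deviated together by a mean r of -0.0081, 0.019 and 0.0025 at Oregon, Nebraska and Yerkes. Single pairs of tissues ran from -0.059 to 0.022, from -0.055 to 0.093 and from -0.30 to 0.35 at these centers. The mean near 0 at Yerkes thus does not show that its same-numbered aliquots share only a number.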
